A study of Mus musculus with 4 samples.

Results

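The genes described here are *Gdf15* and 7 genes of the integrated stress response (*Atf3*, *Atf4*, *Ddit3*, *Trib3*, *Chac1*, *Asns* and *Sesn2*), 8 of the 32285 genes in the count tables. They were matched by gene symbol, and their unique molecular identifiers (UMIs, each marking 1 captured transcript) were summed per library and per cell class. The set was selected on *Gdf15*, whose counts in macrophages after ventilation were already known to be high in these libraries. Its levels are therefore a description and support nothing further. *Ddit3* appears under a second, overlapping gene identifier with 0 UMIs in every library, so its counts rest on the other identifier.

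The integrated stress response is a shared route by which cells react to starvation for amino acids, misfolded proteins in the endoplasmic reticulum, viral RNA or mitochondrial damage. Each of these activates a kinase that phosphorylates the translation factor eIF2, which lowers protein synthesis in general but favors translation of the transcription factor ATF4. ATF4 then induces further regulators (ATF3, the factor CHOP encoded by *Ddit3*, and the pseudokinase TRIB3), enzymes (asparagine synthetase encoded by *Asns*, and CHAC1, which degrades glutathione), the mTORC1 inhibitor sestrin 2 (*Sesn2*) and the secreted cytokine GDF15, which acts on the brainstem receptor GFRAL. As ATF4 is controlled in large part by translation, its mRNA is not a measure of its activity.

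The lungs came from male wild-type C57BL/6 mice, either young (2 to 3 months) or aged (22 months). The labels describe a restricted diet without tying it to either age, so a difference in diet between the ages cannot be told apart from age. At each age, 1 group was naive and not ventilated, and the other was ventilated for 3 hours. The nominal tidal volume was 20 mL/kg, with a positive end-expiratory pressure of 0 cm H2O. The study put an upper limit on each breath, so mice above a given weight received less per kg of body weight. It reports that aged mice were in general heavier than young mice. A difference in volume per kg between the ages therefore cannot be told apart from age. Ventilated mice also received anesthetics, an analgesic and oxygen, which cannot be told apart from ventilation itself. The left lobes of 3 mice per group were digested, frozen as cells, pooled and run as 1 scRNA-Seq library, so there were 4 libraries, no replicates and no tests. The 95% intervals, exact except for differences of log2 ratios (normal approximation), cover counting error only, not differences among mice.

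In the reference genome GRCm38, *Gdf15* lies at chr8:70629393-70632456 on the minus strand, *Atf3* at chr1:191170296-191218039 on the minus strand, *Atf4* at chr15:80255184-80257541 on the plus strand and *Ddit3* at chr10:127290774-127296288 on the plus strand. *Trib3* lies at chr2:152337422-152344032 on the minus strand, *Chac1* at chr2:119351229-119354381 on the plus strand, *Asns* at chr6:7675169-7693254 on the minus strand and *Sesn2* at chr4:132492032-132510501 on the minus strand. All 8 are protein-coding genes. Promoter sequence from RefSeq (GRCm38.p6), from 250 bases before to 50 bases after each transcription start, was available for all 8 genes (9 promoters, as *Gdf15* has 2 starts). These windows were searched on both strands for letters that stress factors are known to recognize.

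Distances count from the RefSeq start, which for *Trib3* lies outside the gene limits given above. The composite site TGATGNAA, read by dimers of ATF4 with C/EBP proteins, was present in 4 genes, against 3.97% of 32851 promoters. The windows below are shown to place it in each of those genes, 5′ to 3′ on the strand of the gene, with the matching letters in capitals:

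Atf3, chr1:191183426-191183453, first matching base 110 bases before the start: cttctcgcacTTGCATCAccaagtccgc

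Chac1, chr2:119351039-119351066, 193 bases before the start: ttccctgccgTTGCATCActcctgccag

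Asns, chr6:7693215-7693242, 23 bases before the start: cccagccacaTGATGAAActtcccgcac

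Trib3, chr2:152344029-152344056, 15 bases after the start: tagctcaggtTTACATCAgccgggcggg

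In *Atf3*, *Chac1* and *Trib3*, the letters match on the opposite strand, so that the capitals read as the reverse complement. The antioxidant response core TGACNNNGC, the motif of NRF2, occurred in *Asns* and *Sesn2* and in 12.4% of all promoters. The AP-1 site TGANTCA occurred in *Ddit3* and in 7.81% of all promoters. The cAMP response element TGACGTCA (1.79% of promoters) and the ER stress response element (0.119%) occurred in none of the 8 genes. The 250 bases before the upstream start of *Gdf15* are shown because its level changed most in single classes, and they held none of these 5 motifs (chr8:70632457-70632706, strand of the gene, no capitals because nothing matched):

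Gdf15: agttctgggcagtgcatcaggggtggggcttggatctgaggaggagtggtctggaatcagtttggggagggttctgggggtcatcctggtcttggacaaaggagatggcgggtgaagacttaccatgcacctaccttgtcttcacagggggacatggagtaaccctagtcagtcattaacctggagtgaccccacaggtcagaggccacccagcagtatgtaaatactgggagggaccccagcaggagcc

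A match describes letters only, and a missing match says nothing about whether a factor acts on the gene from elsewhere.

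Of 15428 barcodes, 9514 were retained (1960 to 2750 per library), with 17736722 to 22711057 UMIs per library and a median of 7236.5 to 8370.5 UMIs per cell. Library pairs shared 0 to 7 barcodes. Clustering gave 18 clusters, of which 16 were assigned to 15 cell classes by marker genes. The classes are rebuilt from these counts and are called "-like" for that reason. All 8 markers of the own list had at least 1 UMI in each library for the alveolar macrophage-like, aerocyte-like, neutrophil-like and alveolar type II-like classes. In the alveolar type II-like class, only 4 of the 8 were seen in at least 20% of cells. Levels are given as UMIs per 1000000 UMIs of the class or library (CPM). They are compared between libraries and not between genes. A difference of at least 2-fold with at least 20 UMIs over the pair of libraries is called higher or lower.

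After ventilation, *Gdf15*, *Asns* and *Chac1* were higher over all retained cells at both ages, while the regulators *Atf3*, *Atf4*, *Ddit3* and *Trib3* and the inhibitor *Sesn2* stayed under a 2-fold difference. The *Gdf15* and *Chac1* calls at both ages and the aged *Asns* call were each lost under at least 1 alternative. In the young mice, 3 of 8 genes were higher and 0 lower, beside 6.13% of 16717 genes higher and 17.5% lower. In the aged mice, 3 of 8 were higher and 0 lower, beside 4.15% of 16614 genes higher and 10.8% lower. The 3 include *Gdf15*, on which the set was selected, so these counts are a description. The median log2 ratio of the 8 genes was 0.39 in young and 0.41 in aged mice, and that of all genes was -0.25 and -0.18. In sums over all cells, a change in the number of cells of a type and a change in RNA per cell cannot be told apart.

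*Gdf15* stood at 9.40 CPM in the young nonventilated library (205 UMIs), 27.1 CPM in the young ventilated (615 UMIs), 16.6 CPM in the aged nonventilated (361 UMIs) and 49.95 CPM in the aged ventilated library (886 UMIs). The 4 counting intervals do not overlap, and the order runs from young nonventilated to aged ventilated. The ratio of ventilated to nonventilated was 2.88-fold in young (95% interval, 2.455 to 3.39) and 3.015-fold in aged mice (2.66 to 3.42). The aged mice were above the young by 1.76-fold without ventilation (1.48 to 2.10) and by 1.845-fold with it (1.66 to 2.05).

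*Asns*, the enzyme that makes asparagine, stood at 5.14 CPM in young nonventilated, 17.0 CPM in young ventilated, 7.16 CPM in aged nonventilated and 14.8 CPM in aged ventilated lungs. It was thus 3.31-fold higher in young (2.67 to 4.12) and 2.07-fold higher in aged mice (1.69 to 2.54). *Chac1* was rare, with 15, 33, 18 and 39 UMIs in the same order of libraries. As a mean over cells, the young *Chac1* log2 ratio was 0.09 in place of 1.03, and without the cells of highest doublet score the aged one was 0.66 in place of 1.37. From summed UMIs, the *Chac1* ratio was 2.11-fold in young (1.115 to 4.18) and 2.66-fold in aged mice (1.49 to 4.94). Both are enzymes, and both windows shown above hold the ATF4 composite letters, as do those of *Atf3* and *Trib3*, which were not higher.

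*Atf4*, the central factor, stood at 192 CPM in young nonventilated, 286 CPM in young ventilated, 194 CPM in aged nonventilated and 222 CPM in aged ventilated lungs. Its ratio was 1.49-fold in young (1.43 to 1.545) and 1.15-fold in aged mice (1.10 to 1.20). *Atf3*, an early-response repressor and activator, went in different directions: 583 to 673 CPM in young (1.15-fold, 1.13 to 1.18) and 601 to 412 CPM in aged mice (1.46-fold lower). *Ddit3*, which encodes the death-linked factor CHOP, lay between 34.6 and 38.9 CPM in all 4 libraries. *Trib3* lay between 1.97 and 3.04 CPM, with the aged ventilated library highest (aged ratio 1.54-fold, 1.01 to 2.36). *Sesn2* lay between 13.3 and 15.8 CPM.

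**Figure D1:**
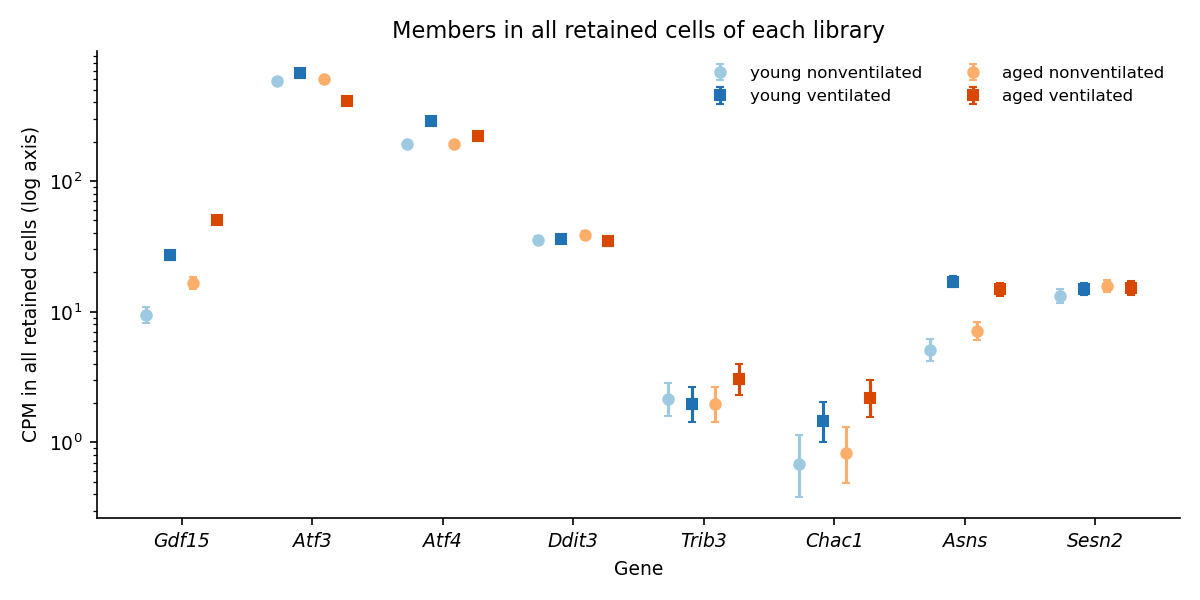
Level of each of the 8 genes over all retained cells, in CPM on a log axis, with 1 point per library and exact Poisson 95% intervals as bars (counting error only). *Gdf15* goes from 9.40 to 27.1 CPM in young lungs and, in aged lungs, from 16.6 to 49.95 CPM, while *Ddit3* stays between 34.6 and 38.9 CPM.

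*Gdf15* UMIs were concentrated in few cells and few classes, and those classes differed between libraries. A *Gdf15* UMI was found in 72 of 2430 cells in young nonventilated, 177 of 2750 in young ventilated, 121 of 2374 in aged nonventilated and 145 of 1960 in aged ventilated lungs. The top 3 classes were pericyte or smooth muscle-like, aerocyte-like and interstitial macrophage or dendritic-like cells in the young nonventilated library, with 79.0% of its *Gdf15* UMIs. In the young ventilated library, they were alveolar macrophage-like, fibroblast-like and aerocyte-like cells, with 60.2%. In the aged nonventilated library, they were aerocyte-like, pericyte or smooth muscle-like and alveolar macrophage-like cells, with 66.8%, and in the aged ventilated library aerocyte-like, alveolar macrophage-like and monocyte-like cells, with 76.7%. These classes made up 13.1% to 22.2% of the cells.

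**Figure D2:**
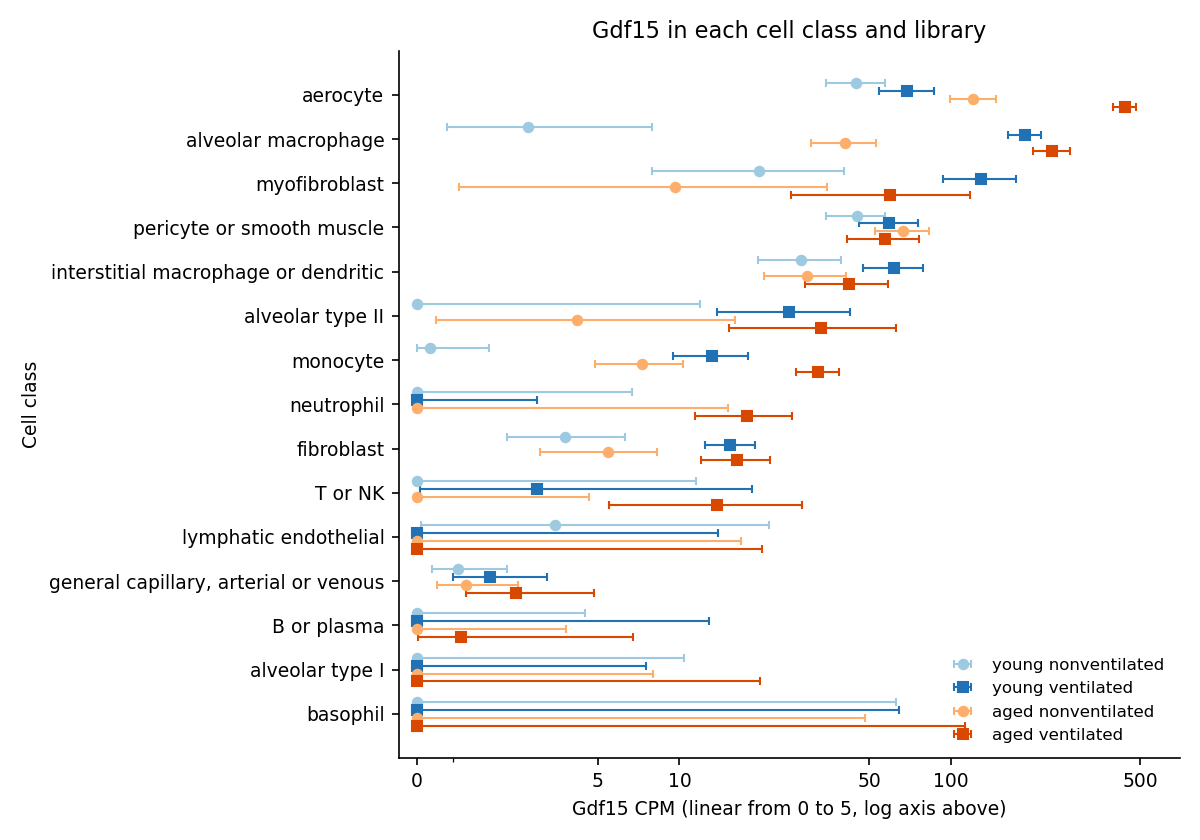
*Gdf15* level in each cell class, in CPM on an axis that is linear from 0 to 5 and logarithmic above, with 1 point per library and exact Poisson 95% intervals as bars. The aged ventilated aerocyte-like cells stand highest at 438 CPM, and alveolar macrophage-like cells go from 3.08 to 188 CPM in young lungs.

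In both aged libraries, the highest *Gdf15* level of any class was in the aerocyte-like cells, the large capillary endothelial cells that line the gas-exchange surface. It was 44.9 CPM in young nonventilated (64 UMIs), 69.3 CPM in young ventilated (76 UMIs), 121 CPM in aged nonventilated (106 UMIs) and 438 CPM in aged ventilated aerocyte-like cells (396 UMIs). The intervals of the young pair overlapped and those of the aged pair did not. The ratio was 1.54-fold in young (1.09 to 2.19) and 3.62-fold in aged mice (2.91 to 4.53). The log2 ratio was larger in aged than in young mice by 1.23, with a counting interval of 0.66 to 1.80. The aged library was also above the young one by 2.70-fold without ventilation (1.96 to 3.74) and by 6.33-fold with it (4.94 to 8.20).

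A *Gdf15* UMI was present in 10 of 151, 21 of 123, 25 of 87 and 28 of 85 aerocyte-like cells in that order. The aged increase therefore lay less in the share of cells with a UMI (28.7% and 32.9%) than in the UMIs of those cells. In the aged ventilated library, 17 cells with at least 5 *Gdf15* UMIs held 374 of the 396, and a single cell held 88 (22.2%). Leaving out the cell with the most in each library gave an aged log2 ratio of 1.74, beside 1.85 with it. Without an upper limit on genes or UMIs per cell, an alternative chosen after seeing the data, the log2 ratio of these aerocyte-like cells was 1.47 in aged and 0.71 in young mice.

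These *Gdf15*-rich aerocyte-like cells carried aerocyte markers, with 23 to 116 such UMIs in each of the 17 aged ventilated cells. Of 8 alveolar macrophage markers, *Marco*, *Siglecf*, *Krt79* and *Fabp1* were at 0 UMIs in the aerocyte-like class of every library, and the whole list summed to 9.14 to 14.4 CPM. The neutrophil marker list did vary, at 220, 80.2, 29.7 and 331 CPM, mostly *S100a8* and *S100a9*; its part in the *Gdf15* level was not tested.

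Alveolar macrophage-like cells, the resident phagocytes of the airspace, had the largest *Gdf15* ratio at each age among classes with at least 20 UMIs and with UMIs in both libraries. *Gdf15* was 3.08 CPM in young nonventilated (4 UMIs), 188 CPM in young ventilated (204 UMIs), 40.6 CPM in aged nonventilated (55 UMIs) and 237 CPM in aged ventilated cells (166 UMIs). The young nonventilated library was far below the other 3, and the intervals of the ventilated pair overlapped (163 to 216 and 202 to 276 CPM). The ratio was 61.1-fold in young (23.5 to 226) and 5.83-fold in aged mice (4.27 to 8.05), and the young value rests on 4 nonventilated UMIs. Aged macrophage-like cells were 13.2-fold above young without ventilation (4.87 to 50.1), a ratio that rests on the same 4 UMIs. They were 1.26-fold above them with it (1.02 to 1.55).

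The size of the young change depended on which cells were counted. The log2 ratio of the alveolar macrophage-like class was 5.62 in young and 2.53 in aged mice. Alveolar macrophages are large cells with much RNA, and the retained class held only 81, 63, 85 and 43 of them. Without the UMI limit alone, it held 100, 110, 98 and 52. With no upper limit on genes or UMIs, the class held 191, 200, 200 and 109 cells, and *Gdf15* stood at 23.7, 211, 57.8 and 229 CPM in the 4 libraries. The log2 ratio was then 3.14 in young and 1.98 in aged mice. The nonventilated levels of the ages, 23.7 CPM in young and 57.8 CPM in aged cells, also lay closer together than in the retained class.

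A *Gdf15* UMI was found in 3.70% of young nonventilated (95% interval, 0.77% to 10.4%), 61.9% of young ventilated (48.8% to 73.85%), 25.9% of aged nonventilated (17.0% to 36.5%) and 53.5% of aged ventilated alveolar macrophage-like cells (37.65% to 68.8%), at median depths of 16203 to 17730 UMIs. The ventilated pair overlapped and both were above the nonventilated pair. When each cell was thinned to 1000 UMIs, the shares were 1.235%, 12.7%, 1.18% and 6.98%, with the nonventilated pair close to each other. B or plasma-like cells, which stand for background from free RNA, had a *Gdf15* UMI in 0%, 0%, 0% and 1.28% of cells at median depths of 7372.5 to 10230.5 UMIs. The zeros of the B or plasma-like class allow shares of up to 3.09% to 8.33%. Aerocyte markers in the macrophage-like class were almost all *Car4* (295 to 1571 UMIs, most in young ventilated), and the other 7 were at 0 to 7 UMIs each.

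Of the other 7 genes, only *Sesn2* passed 2-fold in alveolar macrophage-like cells among those with at least 20 UMIs; it was lower in young mice, and higher when cells were thinned to 1000 UMIs. *Chac1* had 0 UMIs in all 4 libraries, *Asns* had 1 to 8 and *Trib3* 1 to 6. *Atf3* was 1.87-fold higher in young (121 to 226 CPM; 1.52 to 2.30) and 1.49-fold higher in aged mice (150 to 224 CPM; 1.20 to 1.85). *Atf4* and *Ddit3* had intervals that included 1 at both ages. In the young ventilated library, *Atf3* was at 255 CPM in macrophage-like cells with a *Gdf15* UMI and 178 CPM in those without, and *Atf4* at 190 and 195 CPM.

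Monocyte-like cells repeated the order of the macrophages at a lower level. *Gdf15* was 0.36 CPM in young nonventilated (1 UMI), 13.2 CPM in young ventilated (41 UMIs), 7.26 CPM in aged nonventilated (31 UMIs) and 32.45 CPM in aged ventilated cells (118 UMIs). The young ratio of 36.6-fold rests on that single UMI (6.22 to 1482), whereas the aged ratio was 4.47-fold (2.99 to 6.87). Few cells held most of these UMIs. In the aged ventilated library, 5 cells held 78 of the 118, with 31 in 1 cell, and 1 young ventilated cell held 17 of the 41. Those 5 cells had monocyte markers at 3544 CPM, beside 7861 CPM in cells of that library without a *Gdf15* UMI. The part of this difference in the *Gdf15* level was not tested. The class joins a cluster led by nonclassical monocyte markers (238, 208, 443 and 196 cells) with one led by classical markers (4, 145, 31 and 111 cells), so ventilated libraries held more classical cells. Within the nonclassical cluster, *Gdf15* was 7.504 CPM in aged nonventilated and 57.6 CPM in aged ventilated cells, 7.67-fold (5.12 to 11.8). Nearly all *Gdf15* UMIs lay in the nonclassical cluster (1, 35, 31 and 115 UMIs), and the classical cluster had 0, 6, 0 and 3. Of the alveolar macrophage markers in monocyte-like cells, *Chil3* alone was frequent (704 to 1729 UMIs) and the other 7 were at 0 to 11 UMIs. Of the aerocyte markers, *Ednrb* had 12, 184, 18 and 172 UMIs in monocyte-like cells and the other 7 had 0 to 39, and the whole list was at 18.7, 77.3, 35.1 and 58.6 CPM. Neutrophil markers in this class were higher with ventilation, at 241 and 876.5 CPM in young mice and 280 and 1033 CPM in aged mice; their part in the result was not tested.

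Among stromal cells, *Gdf15* in fibroblast-like cells was 4.09, 15.4, 5.44 and 16.3 CPM, 3.77-fold higher in young (2.30 to 6.46) and 2.99-fold higher in aged mice (1.77 to 5.21). With no upper limit on genes or UMIs, the aged log2 ratio in fibroblast-like cells was 0.44 in place of 1.55. Myofibroblast-like cells went from 19.6 to 130 CPM in young mice (6.62-fold, 2.95 to 17.4), and had only 2 and 8 UMIs in aged mice. Pericyte or smooth muscle-like cells expressed *Gdf15* in every library (45.1, 59.4, 66.6 and 57.1 CPM) and the intervals of ventilated and nonventilated libraries overlapped at both ages. Without ventilation, the aged level was 1.48-fold the young (1.05 to 2.08). Own markers also differed between libraries. In cells without a *Gdf15* UMI, they were at 13660, 5438, 12710 and 7354 CPM in fibroblast-like cells. They were at 11100, 1908, 9922 and 4175 CPM in myofibroblast-like cells. Pericyte or smooth muscle-like cells had 22050, 14380, 19200 and 17500 CPM. The part of these differences in the levels of the 8 genes was not tested.

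Other classes had little or none. Neither basophil-like nor alveolar type I-like cells had a *Gdf15* UMI in any of the 4 libraries (0 UMIs), and general capillary, arterial or venous-like cells, the largest class, stood at 1.14 to 2.73 CPM. Neutrophil-like cells had 0, 0, 0 and 25 UMIs, 18 of them in 1 cell, at least 1.44-fold higher in the aged ventilated than in the aged nonventilated library against a floor of 3 counts, and the log2 ratio was 0.45 without the cell with the most. Interstitial macrophage or dendritic-like cells stood at 28.2, 62.0, 29.5 and 42.1 CPM, but a single cell held most of the UMIs in each library (23 of 33, 43 of 63, 21 of 35 and 26 of 34), and the direction turned in young mice when cells were thinned to 1000 UMIs and in aged mice without the UMI limit (log2 ratio -0.79).

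Over all pairs of a gene with a class, 61 of 120 had at least 20 UMIs in the young libraries. Of these, 13 were higher and 8 lower after ventilation, beside 8.58% higher and 14.4% lower over all genes of the named classes. In the aged libraries, 63 of 120 pairs had enough UMIs, with 9 higher and 8 lower, beside 6.03% and 10.0%. The neutrophil-like *Gdf15* pair is 1 of the 9. Its nonventilated sum was 0 UMIs, so its ratio is defined only through the 1 UMI added to each sum. Against a floor of 3 counts, its lower bound was under 2-fold. *Gdf15*, on which the set was selected, made up 5 of the higher pairs at each age, from 7 pairs with enough UMIs. Because of that selection, these counts are a description and support nothing further. Not counting *Gdf15* over all cells, 42 results in classes or over all cells were called at least 2-fold. Of these, 26 were under 2-fold in at least 1 alternative, as were the *Gdf15* calls over all cells at each age.

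**Figure D3:**
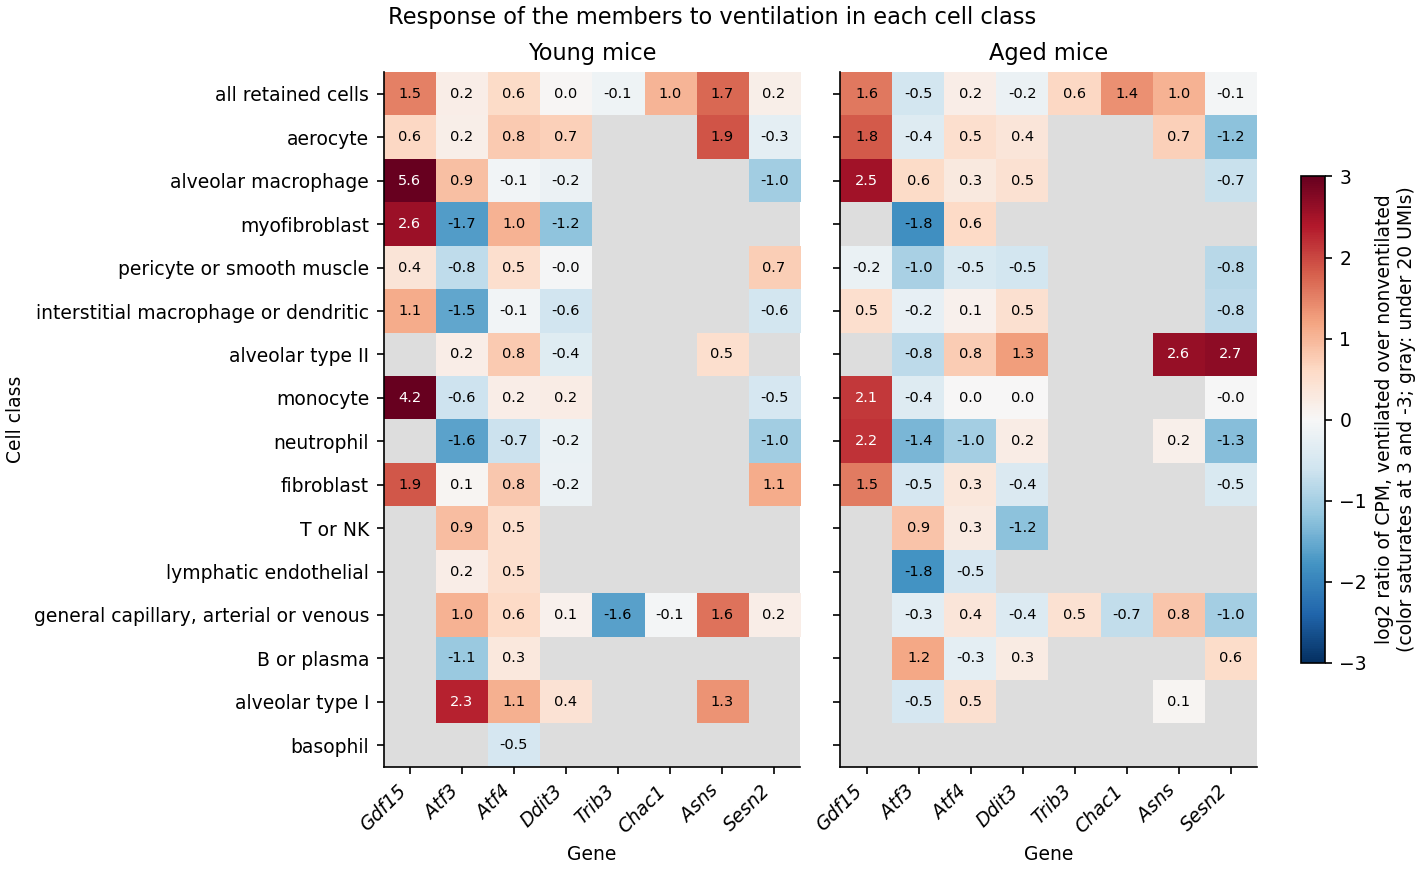
Log2 ratio of ventilated over nonventilated for each gene (columns) and cell class (rows) at each age, with color saturating at 3 in either direction and gray where the 2 libraries held under 20 UMIs. *Gdf15*, on which the set was selected, is above 0 in 7 of 7 classes in young and 6 of 7 in aged lungs. These include young monocyte-like cells with 1 nonventilated UMI and aged neutrophil-like cells with 0. *Atf3* is below 0 in 11 of 14 classes in aged lungs.

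*Atf4* was above 1 in 11 of 15 classes in young and 10 of 14 in aged mice, with small ratios. It was at least 2-fold higher only in young alveolar type I-like cells (110 to 235 CPM; 2.14-fold, 1.47 to 3.155) and young myofibroblast-like cells (165 to 341 CPM; 2.06-fold, 1.49 to 2.88). With cells thinned to 1000 UMIs, *Atf4* in young alveolar type I-like cells turned direction, and at a limit of 5% mitochondrial UMIs the log2 ratio in young myofibroblast-like cells was 0.93. In aerocyte-like cells, *Atf4* was 298, 515, 351 and 499 CPM, and both ventilated libraries lay above both nonventilated ones. Neutrophil-like cells went the other way, at 129, 82.0, 131 and 66.4 CPM, 1.98-fold lower in aged mice. The call of this neutrophil-like pair depends on the UMI added to each sum. In that class, the median log2 ratio of genes of at least 50 CPM was itself -0.31 in young and -0.33 in aged mice.

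*Atf3* did not follow *Gdf15*. In young mice, it was higher in alveolar type I-like cells (158 to 792 CPM; 5.02-fold, 3.78 to 6.765) and in general capillary, arterial or venous-like cells (522 to 1074 CPM; 2.06-fold, 1.97 to 2.16). Without upper limits on genes or UMIs, the second had a log2 ratio of 0.90. Neither held in aged mice, where the levels were 149.5 and 102 CPM in the first class and 761 and 607 CPM in the second. The aged log2 ratio was thus smaller by 2.88 in alveolar type I-like cells (2.04 to 3.71), of which there were only 14 to 36 per library.

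*Atf3* was lower after ventilation at both ages in myofibroblast-like cells (1881 to 589 CPM in young and 1709 to 471 CPM in aged mice, 3.19-fold and 3.63-fold lower). It was also lower in neutrophil-like cells (288 to 94.65 CPM and 258.5 to 100.4 CPM). Interstitial macrophage or dendritic-like cells had 1134 CPM in young nonventilated and 387 to 504 CPM in the other 3 libraries. *Atf3* belongs to the immediate early genes that tissue digestion can raise. Of 12 such genes and heat shock genes in the list used, 10 were below 1 at each age over all cells. All genes leaned down as well: the list medians were -0.20 in young and -0.31 in aged mice, beside -0.25 and -0.18 for all genes. Of the 12, 2 were lower in young and 0 in aged mice, beside 17.5% and 10.8% of all genes. *Jun* was at 1200 and 931 CPM in young and 1074 and 772 CPM in aged mice. The part of these genes in *Atf3* was not tested.

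*Ddit3* had few changes. It was lower in young myofibroblast-like cells (19 to 7 UMIs) and aged T or NK-like cells (24 to 6 UMIs, a direction that turned on thinning), and higher in aged alveolar type II-like cells (33.2 to 81.2 CPM; 2.45-fold, 1.21 to 5.08). *Trib3* reached 20 UMIs in only 1 class, general capillary, arterial or venous-like cells, where it was 3.41-fold lower in young mice (23 to 7 UMIs). Thinned, that log2 ratio was -0.39 in place of -1.64. The aged pair there held 14 and 15 UMIs. Lymphatic endothelial-like cells had 7.53 to 27.5 CPM of *Trib3*, from no more than 6 UMIs each.

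Aerocyte-like and general capillary, arterial or venous-like cells held most *Asns* UMIs in each library (35.7% and 34.8% in young nonventilated, 30.05% and 32.9% in young ventilated, 23.7% and 39.7% in aged nonventilated, 23.95% and 32.7% in aged ventilated). In aerocyte-like cells, it was 28.05, 106, 42.3 and 69.7 CPM, 3.77-fold higher in young (2.61 to 5.54) and 1.65-fold higher in aged mice (1.08 to 2.55). The log2 ratio was smaller in aged mice by 1.19 (0.41 to 1.98), the opposite of *Gdf15* in the same cells. General capillary, arterial or venous-like cells had 7.39, 23.2, 12.0 and 21.35 CPM, 3.14-fold higher in young (2.18 to 4.62) and 1.78-fold in aged mice (1.27 to 2.51). Alveolar type I-like cells went from 19.7 to 55.1 CPM in young mice and stood at 54.2 and 53.8 CPM in aged mice; the young log2 ratio was 0.85 without upper limits on genes or UMIs. *Asns* was above 1 in 4 of 4 classes with enough UMIs in young and 5 of 5 in aged mice, where the alveolar type I-like pair counts as above only through the added UMI.

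*Chac1* UMIs were few in every class. General capillary, arterial or venous-like cells gave 10, 10, 14 and 6 UMIs, with no direction. In the young ventilated library, 10 of 33 UMIs lay in cells without a class, and in the aged ventilated library 16 of 39 lay in alveolar type II-like cells.

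Those alveolar type II-like cells, a class named for the surfactant-secreting epithelium, had 3 of the 9 higher pairs of the aged lungs (*Asns*, *Sesn2* and *Ddit3*). This was more than any other class, beside 10.0% of all genes tested in them. From aged nonventilated to aged ventilated, *Asns* went from 11.05 to 77.5 CPM (7.01-fold, 2.57 to 23.8), *Sesn2* from 15.5 to 111 CPM (7.16-fold, 3.08 to 19.3) and *Chac1* from 1 to 16 UMIs. *Trib3* went from 1 to 11 UMIs. As a mean over cells, the *Sesn2* log2 ratio was 0.56 in place of 2.69, and that of *Ddit3* was under 1 in 5 alternatives, down to 0.52. In young mice, the same cells had 0 and 0 UMIs of *Chac1*, 1 and 6 of *Trib3*, and *Asns* at 25.9 and 39.7 CPM. *Gdf15* was at 0, 14, 2 and 9 UMIs in these cells. The class was shallow, with 71 to 133 cells and medians of 1236 to 1645 UMIs per cell. Its own marker list was at 76900, 59480, 84750 and 48320 CPM in the 4 libraries. Among its cells without a *Gdf15* UMI, only 40 of 73, 50 of 126, 47 of 84 and 34 of 68 held a UMI of any own marker. The remaining cells are not identified as type II cells by these markers. The part of depth and of marker content in these results was not tested.

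*Sesn2* was otherwise more often below 1 than above it (5 of 8 classes in young and 8 of 10 in aged mice). It was lower in neutrophil-like cells (87.0 to 42.4 CPM and 115 to 48.1 CPM) (log2 ratio of -0.47 in young mice when thinned) and in young alveolar macrophage-like cells (23.9 to 11.1 CPM; 2.16-fold lower). The exception in young mice was fibroblast-like cells, with 8.38 to 18.5 CPM (2.21-fold, 1.53 to 3.24), though the log2 ratio was 0.06 with cells thinned to 1000 UMIs. In aged fibroblast-like cells, it was 10.9 and 7.80 CPM. Aged mice also had lower *Sesn2* in aerocyte-like cells (log2 ratio -1.239, alternatives -1.345 to -0.966). The same held in general capillary, arterial or venous-like cells (-1.024, alternatives -1.129 to 0.881).

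Between ages, 0 of 8 genes passed 2-fold over all cells without ventilation, beside 3.14% of genes higher and 1.91% lower in aged mice. With ventilation, 0 of 8 did, beside 4.13% and 2.93%. Within classes, 5 of 63 pairs were higher in aged than in young nonventilated mice and 2 lower, beside 4.02% and 3.34% of all genes. With ventilation, 7 of 65 were higher and 3 lower, beside 5.46% and 4.93%. *Gdf15* gave 3 of the higher pairs in each comparison. Without ventilation, they were aerocyte-like, alveolar macrophage-like and monocyte-like cells. The nonventilated monocyte-like call rests on 1 young UMI beside 31 aged UMIs, and the alveolar macrophage-like call on 4 beside 55. With ventilation, they were aerocyte-like, monocyte-like (2.47-fold, 1.715 to 3.61) and neutrophil-like cells. The neutrophil-like pair held 0 young and 25 aged UMIs, 18 of them in 1 cell. Its ratio is defined only through the UMI added to each sum.

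The retained cells held 55.9%, 33.2%, 43.0% and 41.6% of each library's *Gdf15* UMIs, beside 52.9%, 51.2%, 48.2% and 43.6% of all UMIs. The *Gdf15* share lay furthest below the share of all UMIs in the young ventilated library. Barcodes with over 5000 genes were 7.67% to 14.0% of barcodes and held 34.1%, 45.3%, 43.9% and 46.4% of the *Gdf15* UMIs, beside 34.6%, 28.2%, 37.6% and 33.9% of all UMIs. In them, *Gdf15* was 8.76 CPM in young nonventilated, 67.0 CPM in young ventilated, 21.7 CPM in aged nonventilated and 71.6 CPM in aged ventilated lungs. Over every barcode, the levels were 8.90, 41.7, 18.6 and 52.4 CPM, and the ratio was 4.69-fold in young (4.19 to 5.26) and 2.82-fold in aged mice (2.60 to 3.06). Thus the young ratio was the larger of the pair over all barcodes. In retained cells, the aged log2 ratio exceeded the young by only 0.07, with a counting interval of -0.22 to 0.35.

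**Figure D4:**
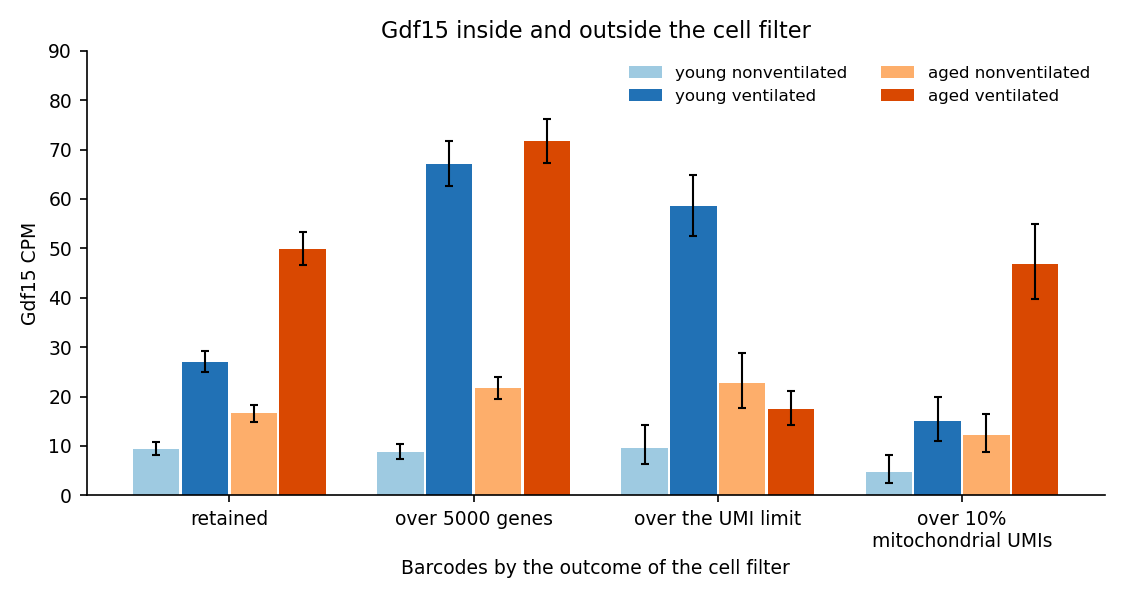
*Gdf15* level in CPM on a linear axis by kind of barcode (retained, over 5000 genes, over the UMI limit, over 10% mitochondrial UMIs), with 1 column per library and exact Poisson 95% intervals as error bars. Barcodes over 5000 genes stand at 8.76 and 67.0 CPM in young lungs and at 21.7 and 71.6 CPM in aged lungs.

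Other genes of the pathway were taken from lists chosen with earlier results of these data known. Over all retained cells, the 14 genes for eIF2 kinases, phosphatase subunits and eIF2 and eIF2B subunits had 1 higher and 0 lower in young and 0 and 0 in aged mice. All counts in these lists stand beside the same shares of all genes as above (6.13% higher and 17.5% lower in young, 4.15% and 10.8% in aged mice). The higher gene was *Eif2ak2*, the kinase that senses double-stranded RNA and is induced by interferon, at 50.5 and 139 CPM in young mice (2.76-fold, 2.575 to 2.96). The kinase of the endoplasmic reticulum, *Eif2ak3*, was at 0.66-fold in young and 0.83-fold in aged mice. The median log2 ratio of this list was 0.15 and 0.07.

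Aminoacyl-tRNA synthetases, which charge tRNAs and are ATF4 targets, leaned upward with 11 of 12 above 1 at each age and 0 past 2-fold (medians 0.60 and 0.43; *Tars* 1.92-fold in young, *Yars* 1.59-fold in aged mice). Amino acid transporters had 2 of 9 higher in young and 1 of 9 in aged mice. Both included the cystine transporter *Slc7a11*, with 128 and 421 CPM in young (3.29-fold, 3.15 to 3.43) and 77.7 and 762 CPM in aged mice (9.805-fold, 9.32 to 10.3). Serine, glycine and one-carbon enzymes had 2 of 9 higher (*Psat1*, 2.35-fold, and *Cth*, 2.71-fold) and 1 lower (*Pycr1*, 0.43-fold) in young mice, and 0 higher and 1 lower in aged mice, with medians of 0.12 and -0.21.

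Of 15 other outputs of ATF4 or CHOP, 1 was higher (*Gadd45a*, a growth-arrest gene, 2.59-fold and 3.29-fold) and 1 lower (*Vldlr*, 0.24-fold and 0.47-fold) at each age. Endoplasmic reticulum chaperones and outputs of IRE1 or ATF6 had 3 of 18 higher and 16 of 18 above 1 at each age (medians 0.61 and 0.54), with *Hspa5*, the main chaperone there, at 2.09-fold in young and *Creld2* at 2.48-fold in aged mice. Among 11 family members outside the stress list, 1 was higher and 3 lower in young mice; *Trib1* was 2.75-fold higher, *Sesn1* at 0.45-fold and *Gdf10* at 0.16-fold.

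Lists of neighboring stress routes were set beside these. NRF2 targets, the antioxidant genes, had 6 of 10 higher and 0 lower at each age (medians 1.43 and 1.30). *Hmox1*, heme oxygenase 1, led them with 28.0 and 346 CPM in young and 32.0 and 482 CPM in aged mice. Mitochondrial stress genes had 0 of 8 higher and 1 lower in young mice (*Oma1*, 0.48-fold) and 0 and 0 in aged mice, and p53 targets 0 of 10 in either direction (*Cdkn1a*, 1.83-fold in young mice). The receptor of GDF15 was nearly absent: *Gfral* had 1, 0, 1 and 0 UMIs, while its partner *Ret* had 23, 43, 106 and 56 UMIs.

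**Figure D5:**
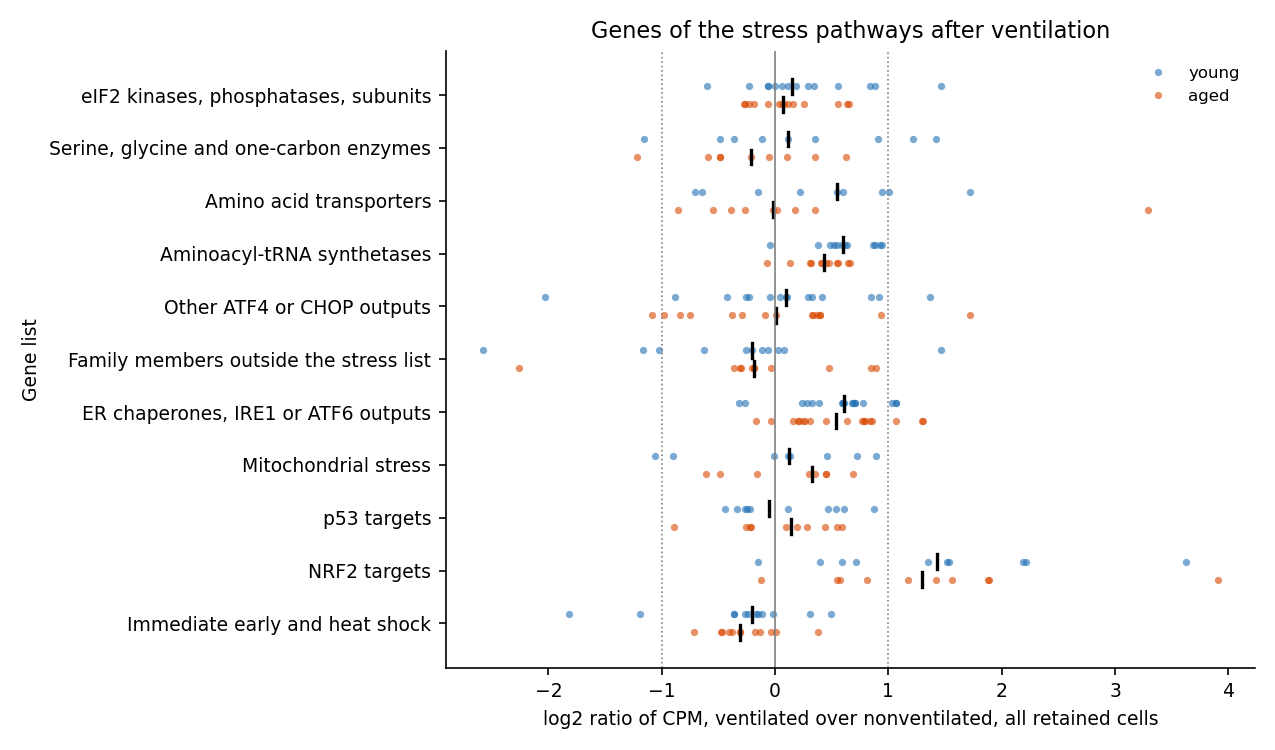
Log2 ratio of ventilated over nonventilated over all retained cells for the genes of each pathway list at each age, with 1 point per gene of at least 20 UMIs and a mark at the list median. NRF2 targets have the highest medians (1.43 in young and 1.30 in aged lungs), and the median of all genes was -0.25 and -0.18.

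Among the genes whose level across the 15 classes and 4 libraries was most like that of *Gdf15* were *Cbr3* (Pearson r = 0.70), *Cmtm3* (0.67), *Spire1* (0.67) and *Phlda3* (0.66), over 60 points and among 12916 genes. The points share libraries and depth, so r is a description. Of the other stress genes ranked, *Atf3* stood nearest at rank 283 (r = 0.455), followed by *Atf4* at rank 1298 (0.36), *Ddit3* at rank 4752 (0.20), *Asns* at rank 7892 (0.07) and *Sesn2* at rank 9088 (0.01).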

How the data were processed

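Per the labels and the study's methods, the authors aligned the reads with Cell Ranger 7.0.0 to mm10 and deposited raw UMI counts for each gene in each barcode. Barcodes were retained here if they held between 200 and 5000 genes, no more than 10% mitochondrial UMIs and no more than 21021 UMIs, the 93rd percentile once the other limits were applied. The barcodes over which the authors took that percentile were not clear. Clusters were made with Seurat 5.3.0 (R 4.3.3) (2000 variable genes without the members and pathway genes, 37 components, resolution 0.18) and named from marker lists by a rule set after the clusters were seen. Scrublet (scanpy 1.11.5) marked 42 cells (0.442%), too few to have worked, so no doublets were removed.

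UMIs were summed per class and library and scaled to 1000000 (CPM). Log2 ratios add 1 UMI to each sum, and folds are ratios of CPM. Intervals are Poisson for levels, conditional binomial for folds, Clopper-Pearson for shares and a normal approximation for differences of log2 ratios. The named genes were the 8 members, the genes with the 2 largest rises and falls at each age per pathway list and the 5 genes most like *Gdf15* (Pearson r of log2(CPM + 1), genes of at least 200 UMIs). From these, the text gives those that the results turn on, and 1 of the 5 is not reported here. A few other genes (*Jun*, *Gfral* and single markers) were added after their values were seen. Shares of cells were also computed after thinning to 1000 UMIs, with shallower cells left out. The members and all lists were chosen with earlier results of these data known. The fold ratio, its interval and the 2-fold call were checked on simulated counts in Python 3.11.15 (numpy 2.4.6, scipy 1.17.1, pandas 2.3.3).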

Additional observations from a re-analysis of the deposited data

Results flagged for a closer look

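For 4 results, the ratio after ventilation lay above 1 in young and below 1 in aged mice with both counting intervals excluding 1, and the difference was not tested because each group was 1 library. *Atf3* over all retained cells had an aged minus young log2 ratio of -0.75, in aerocyte-like cells -0.557 (641.5 to 724 CPM in young, 614 to 470 CPM in aged mice) and in general capillary, arterial or venous-like cells -1.366. *Atf4* in pericyte or smooth muscle-like cells had -0.966 (171 to 242 CPM in young, 227 to 164 CPM in aged mice).

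Some genes were also at least 2-fold above the nonventilated libraries in barcodes outside the retained cells. Over 5000 genes, *Gdf15* was 66.99 CPM in young and 71.63 CPM in aged ventilated lungs, *Asns* 27.63 and 25.84 CPM, and in aged ventilated lungs *Trib3* was 6.024 and *Chac1* 5.806 CPM. Over the UMI limit, *Gdf15* was 58.5 CPM in young ventilated lungs, and *Asns* was 9.141 CPM in young and 12.3 CPM in aged ventilated lungs. *Gdf15* over the UMI limit went the other way in aged mice, at 22.7 CPM without and 17.4 CPM with ventilation. Over 10% mitochondrial UMIs, *Gdf15* was 15.01 CPM in young and 46.91 CPM in aged ventilated lungs, and *Asns* was 18.21 CPM in young ventilated lungs. No group had enough samples to look for a library far from the others.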

How the results depend on the processing

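Each group was 1 pooled library, so no replicate could be left out. The alternatives covered ratios of ventilated to nonventilated libraries, and no ratio between ages. No paired analysis was possible because each group was 1 pooled library. The direction of the *Gdf15* ratio over all retained cells held under all 14 alternatives at each age. Its young log2 ratio (1.521) became 1.831 without the UMI limit, 2.25 without upper limits on genes or UMIs (chosen after seeing the data), 2.226 over every barcode, 0.978 with cells thinned to 1000 UMIs and 1.811 with classes weighted alike. Its aged log2 ratio (1.59) became 1.272 without the UMI limit, 1.293 with the 93rd percentile over all barcodes, 0.836 as a mean over cells and 1.898 when thinned. The count of higher genes over all cells was 2 to 3 in young and 2 to 4 in aged mice.

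The 13 higher gene and class pairs in young mice became 8 at 5% mitochondrial UMIs, 25 without upper limits on genes or UMIs, 30 with no minimum of UMIs and 22 at 1.5-fold. The 9 in aged mice became 5 without the cells of highest doublet score, 19 without upper limits, 14 when thinned, 5 at a minimum of 50 UMIs, 31 with no minimum and 14 at 1.5-fold. Of 2004 other values, 103 (for 55 of 138 results) had another sign than the reported value, most of them for results under 2-fold. Of 42 results called at least 2-fold, 26 fell under it in at least 1 alternative (72 values). Among called results, 8 values turned direction, namely *Atf3* in aged B or plasma-like cells (-0.683 without upper limits and -0.422 thinned) and, all thinned, *Ddit3* in aged T or NK-like cells (0.317), *Sesn2* in young alveolar macrophage-like cells (0.363) and aged general capillary, arterial or venous-like cells (0.881), *Atf4* in young alveolar type I-like cells (-0.148), and *Gdf15* in young interstitial macrophage or dendritic-like (-0.139) and aged neutrophil-like cells (-1.142). The causes were not tested. Depth limits the rare genes: *Chac1* and *Trib3* each reached 20 UMIs in at most 1 class per comparison.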
